A study of Mus musculus with 8 samples.

Results

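The genes described here encode the constant regions of the mouse immunoglobulins: Ighm, Ighd, Ighg2b, Ighg3 and Igha of the heavy chain locus, Igkc of the kappa locus, and Iglc1, Iglc2 and Iglc3 of the lambda locus. They are 9 of the 55487 genes in the deposited count table and were taken by gene symbol. All 9 passed the filter on low counts and were among the 18884 genes tested. The data are RNA-seq counts from 8 mouse libraries labelled as pro-B cells, 4 with the genotype CD25_KO and 4 with the genotype WT. Il2ra encodes CD25, a subunit of the receptor for interleukin-2. The single comparison sets these genotypes against each other. Strain, age and the knockout allele are not given in the sources used here, nor is whether each library came from its own animal. The p-values therefore measure only the spread between these libraries, which may be technical in part.

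An antibody heavy chain is made from rearranged V, D and J segments joined by splicing to a constant region. Ighm, the mu gene, lies nearest to the J segments and is the first constant gene to be used; its membrane form pairs with the surrogate light chain in the pre-B cell receptor. Ighd, the delta gene, follows it and is made by alternative splicing of the same primary transcript in later B cells. The gamma, epsilon and alpha genes lie further downstream and are used after class switching, although unrearranged germline transcripts also arise from them. Kappa and lambda light chains are assembled after the heavy chain, and each uses a single constant exon. Transcripts of unrearranged kappa genes also exist, and the counts do not tell them from rearranged ones.

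Library totals ran from 43974037 to 57988772 counts. Il2ra, the targeted gene, held 200.2, 216, 216 and 140.4 CPM (counts scaled to library size) in wild type 1 to 4, against 145, 168, 244 and 168 CPM in labelled knockout 1 to 4. The groups overlapped (log2 fold change -0.09 ± 0.19 SE, adjusted p = 0.849, edgeR), so its counts did not check the labels, and counts over all exons do not show whether some exons were missing. The second group is therefore called labelled knockout. Markers of the pro-B label were mixed. Il7r (498 to 592 CPM), Rag1 (205 to 389 CPM), Rag2 (156 to 219 CPM), Dntt (16.1 to 119 CPM) and the surrogate light chain genes Igll1 (38.8 to 206 CPM) and Vpreb1 (30.8 to 151 CPM) were present in every library. Kit, the receptor that marks pro-B cells, by contrast had 0.701 to 3.20 CPM, and the progenitor marker Cd34 had 0.140 to 0.605 CPM. Il2ra and Ms4a1 (596 to 838 CPM), which mark later B lineage stages, were well above both. The mature B cell genes Cr2 and Fcer2a were low, at 2.74 to 8.58 and 10.1 to 30.4 CPM. Cr2, Fcer2a and Ms4a1 are among 16 listed transitional and mature markers, which summed to 3526 to 4314 CPM over the 8 libraries. Kit, Cd34, Il7r and Dntt are among 10 listed pro-B and progenitor markers, which summed to 2934 to 3702 CPM. Of these, Ly6d alone held 1790 to 2621 CPM and Bst1 held 44.3 to 64.5 CPM, so neither sum weighed its markers alike. In such bulk samples, fewer cells of a type and less RNA per cell cannot be told apart.

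Fragments that align to several places were counted at each of them, so the likeness of the lambda genes bears on what their counts mean. The last 120 coding bases of each, stop codon included, are shown to make it visible, beside those of Igll1, which encodes the lambda-like part of the surrogate light chain. All 4 lie on the minus strand of chromosome 16 (GENCODE M21 transcripts, GRCm38). The sequences run 5′ to 3′, and capitals mark bases that differ from Iglc2.
Iglc2: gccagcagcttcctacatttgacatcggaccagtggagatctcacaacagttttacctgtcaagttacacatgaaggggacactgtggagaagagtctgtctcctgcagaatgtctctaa
Iglc3: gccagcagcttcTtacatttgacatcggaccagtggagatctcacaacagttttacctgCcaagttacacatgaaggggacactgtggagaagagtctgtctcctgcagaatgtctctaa
Iglc1: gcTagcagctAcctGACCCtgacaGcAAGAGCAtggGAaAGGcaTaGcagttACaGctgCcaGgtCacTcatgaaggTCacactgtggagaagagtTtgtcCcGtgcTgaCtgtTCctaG
Igll1: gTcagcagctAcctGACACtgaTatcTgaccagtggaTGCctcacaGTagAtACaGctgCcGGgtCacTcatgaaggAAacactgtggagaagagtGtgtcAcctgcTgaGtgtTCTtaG
They occupy chr16:19198536-19198655 (Iglc2), chr16:19065365-19065484 (Iglc3), chr16:19061752-19061871 (Iglc1) and chr16:16860815-16860934 (Igll1). Over these bases Iglc3 differed from Iglc2 at 2 positions, Igll1 at 33 and Iglc1 at 39. Over the whole annotated transcripts, Iglc2 and Iglc3 shared an identical stretch of up to 79 bases, whereas Iglc1 shared at most 19 bases with Iglc2 and 20 with Igll1. Of the distinct 50-base stretches of Iglc3, 10.7% also occurred in Iglc2, and none occurred in Iglc1 or Igll1. No 100-base stretch was common to any pair of the constant genes. How many fragments were shared between Iglc2 and Iglc3 depends on read length, which the sources used here do not give.

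Ighm was the most abundant of the 9 genes (chr12:113418558-113422730, minus strand, mm10). Its level was 13038, 14166, 13652 and 11972 CPM in wild type 1 to 4. Labelled knockout 1 to 4 gave 14894, 13142, 14882 and 13082 CPM. The groups overlapped, and the highest library was 1.24 times the lowest. Mean levels were 13207 ± 944 and 14000 ± 1025 CPM (SD, n = 4 each), a log2 fold change of 0.08 ± 0.08 (SE; 95% interval from -0.10 to 0.27). By the quasi-likelihood test of edgeR, with p adjusted over all genes after Benjamini and Hochberg, it did not pass (adjusted p = 0.665). Ighm alone took 67.4% to 72.4% of the counts of the 9 genes.

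Ighd (chr12:113406604-113416324, minus strand) held 186, 182, 149 and 128 CPM in wild type 1 to 4. In labelled knockout 1 to 4 it held 177, 160, 176 and 145 CPM. The labelled knockout values lay within the wild type range, with a log2 fold change of 0.03 ± 0.13 (SE; adjusted p = 0.945, edgeR). Both genes have exons of nearly the same summed length, 1886 and 1900 bases, so their counts can be set side by side. Ighd counts were between 1.07% and 1.43% of Ighm counts. The ratio was highest in wild type 1 and lowest in wild type 4, and it did not part the groups (difference of mean log2 ratios, labelled knockout minus wild type, -0.04; exact permutation test, two-sided, p = 0.714).

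The kappa constant gene Igkc (chr6:70726435-70726966, plus strand) was the second most abundant per exon length. Wild type 1 to 4 held 2734, 3224, 3935 and 2934 CPM, and labelled knockout 1 to 4 held 3040, 3155, 3492 and 2873 CPM. Wild type 3 was the highest library and wild type 1 the lowest, so the wild type range enclosed the other group. The means were 3207 ± 525 and 3140 ± 261 CPM (SD, n = 4 each), a log2 fold change of -0.03 ± 0.12 (SE; adjusted p = 0.930, edgeR). Relative to Ighm, Igkc counts ran from 20.4% in labelled knockout 1 to 28.8% in wild type 3. The mean log2 ratio differed by -0.10, labelled knockout minus wild type (two-sided exact permutation p = 0.457).

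Of the lambda constant genes, Iglc1 (chr16:19061618-19062071, minus strand) held 1022, 1052, 1178 and 927 CPM in wild type 1 to 4, and 1245, 851, 943 and 966 CPM in labelled knockout 1 to 4. Labelled knockout 1 was the highest of the 8 libraries and labelled knockout 2 the lowest. Iglc2 (chr16:19198396-19200351, minus strand) held 773, 609, 846 and 639 CPM in wild type and 861, 582, 647 and 652 CPM in labelled knockout. Its highest and lowest libraries were the same as those of Iglc1. Iglc3 (chr16:19065230-19065681, minus strand) held 377, 469, 499 and 358 CPM in wild type and 464, 375, 425 and 406 CPM in labelled knockout. For Iglc3 the wild type range enclosed the other group. Their log2 fold changes were -0.06 ± 0.13, -0.06 ± 0.15 and -0.03 ± 0.13 (SE), with adjusted p of 0.854, 0.869 and 0.938 (edgeR). Summed to a single feature, in which a fragment shared between them may count more than once, the lambda genes had a log2 fold change of -0.06 ± 0.12 (adjusted p = 0.864, edgeR).

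The counts of Iglc1, Iglc2 and Iglc3 together made up 36.4% to 45.8% of the lambda plus kappa constant counts, with a median of 39.7%. A fragment shared between Iglc2 and Iglc3 may count more than once here, whereas Igkc had no 50-base stretch in common with another constant gene. This share and the lambda to kappa ratio may therefore be too high, by an amount that was not measured. The lambda to kappa count ratio was 0.795, 0.661, 0.641 and 0.656 in wild type 1 to 4. In labelled knockout 1 to 4 it was 0.845, 0.573, 0.577 and 0.704. Library 1 had the highest ratio in each group, and the groups overlapped (mean log2 difference -0.04; exact permutation test, two-sided, p = 0.771). Within the lambda genes, Iglc1 took 46.7% to 49.4% of lambda counts, Iglc2 28.6% to 35.6% and Iglc3 17.4% to 22.0%. Parts of 2 of these genes also belong to other genes in the annotation, 38 exon bases of Iglc2 (shared with Iglj2) and 93 of Iglc3 (shared with 2010309G21Rik). The low Iglc4 gene had 26 to 55 counts in wild type and 22 to 69 in labelled knockout (adjusted p = 0.965, edgeR). The joining segment Iglj2 lies inside an annotated Iglc2 exon and was listed at 0 in every library.

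**Figure D1:**
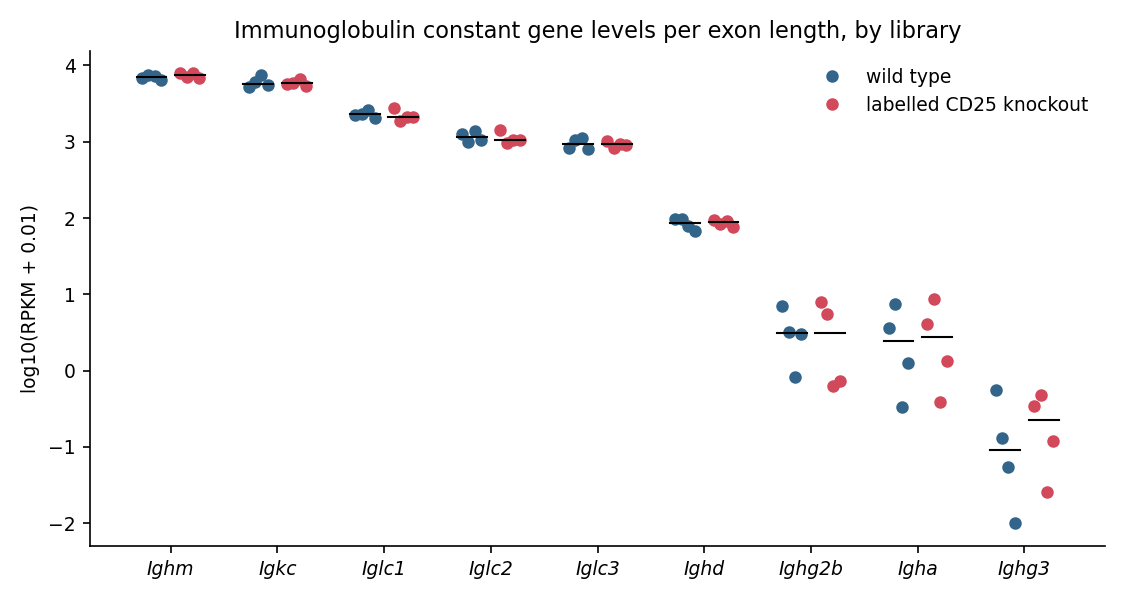
Levels of the 9 constant genes as log10 of CPM per kilobase of exon (RPKM, plus 0.01), one point per library, with wild type at the left and labelled knockout at the right of each gene and a bar at the group median. The 6 genes from Ighm to Ighd sit in tight, overlapping groups, while Ighg2b, Igha and Ighg3 spread widely within each group.

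Ordered by level per exon length, the median over the 8 libraries was 7104 RPKM for Ighm, 5822 for Igkc, 2189 for Iglc1, 1062 for Iglc2 and 920 for Iglc3. Ighd followed with 88.3 RPKM, then Ighg2b with 3.09, Igha with 2.48 and Ighg3 with 0.113. Some neighbours in this order were not separated. Ighm exceeded Igkc in 7 of 8 libraries, Iglc2 exceeded Iglc3 in 7 and Ighg2b exceeded Igha in 5, with overlapping ranges each time. Igkc and Iglc1, Iglc1 and Iglc2, Iglc3 and Ighd, and Ighd and Ighg2b did not overlap over the 8 libraries. The level of Igha exceeded that of Ighg3 in 8 of 8 libraries, although their ranges overlapped.

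The downstream heavy chain genes varied far more between libraries of a group than the other members: the coefficient of variation of Igha was 101% in wild type and 103% in labelled knockout, where that of Ighm was 7.15% and 7.32%. Igha, the constant gene of IgA (chr12:113254830-113260236, minus strand), had 430, 1132, 39 and 185 counts in wild type 1 to 4. In labelled knockout 1 to 4 it had 530, 1266, 50 and 199 counts. In CPM these spanned 0.870 to 23.2. In each group library 2 was the highest and library 3 the lowest, and the highest of all was 26.7 times the lowest.

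Ighg2b, the IgG2b gene (chr12:113302965-113307933, minus strand), held 19.0, 8.48, 2.21 and 8.05 CPM in wild type 1 to 4 and 20.9, 14.6, 1.64 and 1.95 CPM in labelled knockout 1 to 4. Library 1 was the highest and library 3 the lowest in each group. Ighg3, the IgG3 gene (chr12:113356224-113361232, minus strand), rested on few counts: 62, 17, 5 and 0 in wild type 1 to 4 and 40, 65, 2 and 15 in labelled knockout 1 to 4. The 0 in wild type 4 allows up to 3 counts, or 0.0538 CPM, for counting error only. The log2 fold changes were 0.20 ± 0.97 for Igha, 0.05 ± 0.84 for Ighg2b and 0.39 ± 1.16 for Ighg3 (SE), with adjusted p of 0.946, 0.984 and 0.905 (edgeR).

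**Figure D2:**
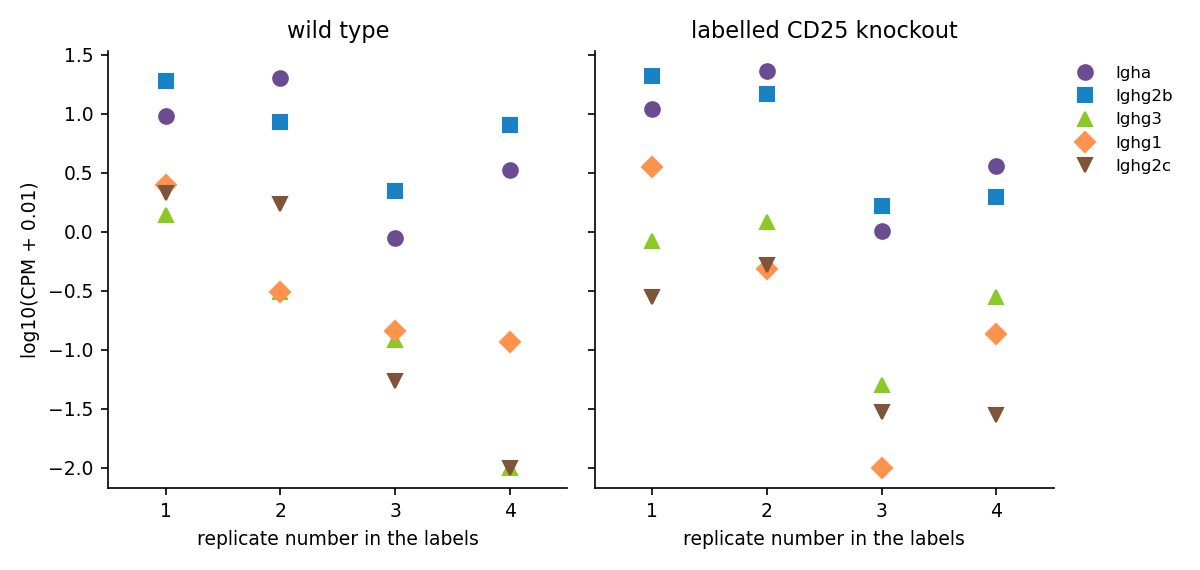
The downstream heavy chain constant genes in each library as log10(CPM + 0.01), wild type at the left and labelled knockout at the right, by the replicate number in the labels. In each group Igha was highest in library 2 and lowest in library 3, and Ighg2b was highest in library 1; points at -2 are libraries with 0 counts.

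Summed, Ighg2b, Ighg3 and Igha gave 1342, 1630, 143 and 634 counts in wild type 1 to 4 and 1584, 2126, 134 and 322 counts in labelled knockout 1 to 4. They amounted to between 0.0181% and 0.297% of Ighm counts. The ratio did not part the groups (mean log2 difference -0.25; SD 1.51 and 1.91; exact permutation test, two-sided, p = 0.857). The other downstream genes of the locus also rested on few counts. Ighg2c had 95, 98, 2 and 0 counts in wild type 1 to 4 and 13, 28, 1 and 1 in labelled knockout 1 to 4. Ighg1 had 111, 17, 6 and 6 counts in wild type and 172, 26, 0 and 7 in labelled knockout. Ighe had 7 counts or fewer in each wild type library and 8 or fewer in each library labelled knockout. Neither Ighg1 nor Ighg2c passed the test (adjusted p = 0.901 and adjusted p = 0.494, edgeR), and Ighe did not pass the filter on low counts.

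Jchain, which joins IgM and IgA into polymers and is made in plasma cells, was also lowest in library 3 of each group: it had 2.60, 7.21, 0.134 and 1.11 CPM in wild type 1 to 4 and 0.969, 5.28, 0 and 3.21 CPM in labelled knockout 1 to 4. Library 2 was the highest in each group, as for Igha. Other genes of the plasma cell list did not share this order. Xbp1 was lowest in library 2 of each group (13.4 and 32.7 CPM), as was Sdc1 (21.2 and 49.9 CPM). Mzb1 was highest in library 3 of each group (21.9 and 15.0 CPM). Prdm1 was lowest in wild type 3 and in labelled knockout 2. The plasma cell marker Tnfrsf17 stood at 0 to 0.330 CPM over the 8 libraries. The list of 14 plasma cell and secretion genes summed to between 930 and 1052 CPM in wild type and between 906 and 1154 CPM in labelled knockout. Slamf7 alone held 357 to 399 CPM in wild type and 301 to 340 CPM in labelled knockout, so the sum did not weigh the genes alike. The part of plasma cells in the downstream counts was not tested. The gamma genes share sequence as well: Ighg2b and Ighg3 had an identical stretch of 88 bases and Ighg2b and Ighg2c one of 78, so their low counts are uncertain in part.

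The levels of the heavy chain genes did not follow their order along the locus. Measured from the 5′ end of Ighm, Ighd starts 6.41 kb downstream, Ighg3 61.5 kb, Ighg1 92.2 kb, Ighg2b 114.8 kb, Ighg2c 133.8 kb, Ighe 149.5 kb and Igha 162.5 kb. Ighg3, the nearest of the genes behind Ighd, had a median of 0.113 RPKM, whereas Igha, the farthest, had 2.48 RPKM.

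**Figure D3:**
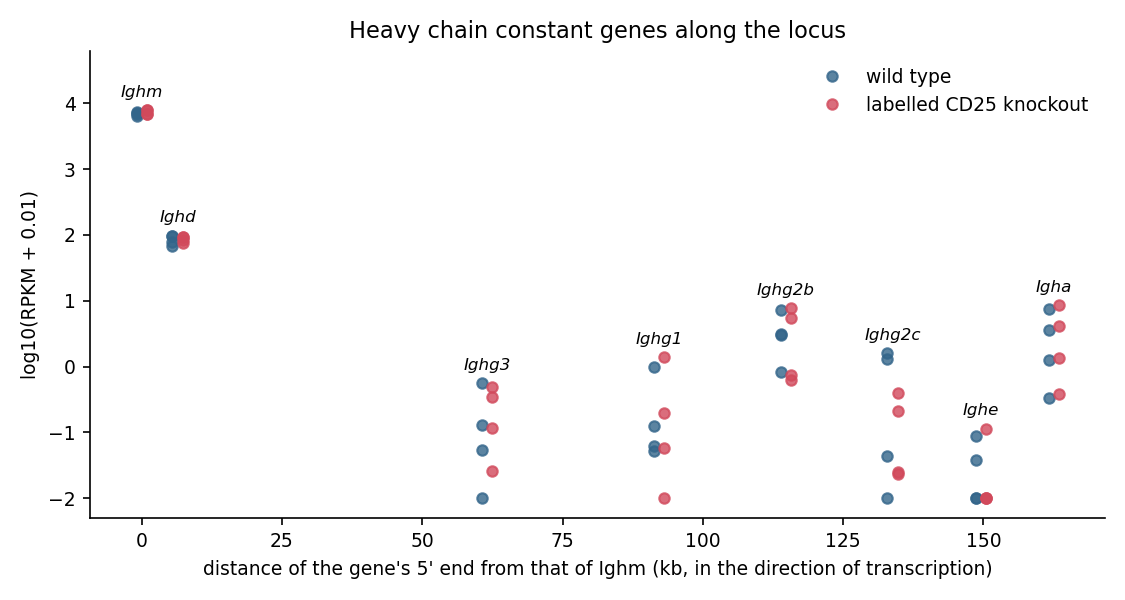
Heavy chain constant genes by the distance of their 5′ end from that of Ighm (kb) and their level, log10(RPKM + 0.01), one point per library in each group. Levels were lower at Ighd than at Ighm, lower again at Ighg3 and higher at Ighg2b and Igha; points at -2 are libraries with 0 counts.

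None of the 9 genes passed the test of genotype. At an adjusted p under 0.05 (edgeR) the count was 0 of 9, against a background of 0% of the 18884 genes tested. At an unadjusted p under 0.05 it was also 0 of 9, where 12.6% of all genes tested had such a p, 5.53% with higher and 7.11% with lower values in labelled knockout. No member had groups whose CPM ranges were apart, which was so for 6.79% of all genes tested. DESeq2 and limma-voom with quality weights also called 0 of the 9, and they called 6 and 0 of all genes. Over all genes the edgeR count was 363 without wild type 4, where it was still 0 of the 9. Of the 9 log2 fold changes 5 were above 0 and 4 below, with a median of 0.03 beside 0.0033 over all genes tested.

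How closely the difference was bounded depended on the gene. For Ighm the 95% interval ran from 0.932 to 1.21 times wild type, and for Ighd from 0.828 to 1.25 times. It ran from 0.813 to 1.18 times for Igkc and from 0.761 to 1.20 times for Iglc2. For Iglc1 it ran from 0.787 to 1.17 times and for Iglc3 from 0.807 to 1.19 times. The low genes left much wider intervals, from 0.283 to 3.78 times for Ighg2b, 0.254 to 5.17 times for Igha and 0.215 to 7.96 times for Ighg3. With the replicate number as a block, which was not shown to pair the libraries, the log2 interval of Igha ran from -0.18 to 0.53. That of Ighg2b then ran from -1.35 to 0.67 and that of Ighg3 from -1.37 to 3.13. Together the 9 genes took 1.84%, 2.02%, 1.98% and 1.63% of all counts in wild type 1 to 4. In labelled knockout 1 to 4 they took 2.07%, 1.83%, 2.09% and 1.80%. Wild type 4 was the lowest, and the groups overlapped (mean log2 difference 0.06; exact permutation test, two-sided, p = 0.486). Adjusted over the 5 ratio and share measures compared, each exact permutation p became 0.857.

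**Figure D4:**
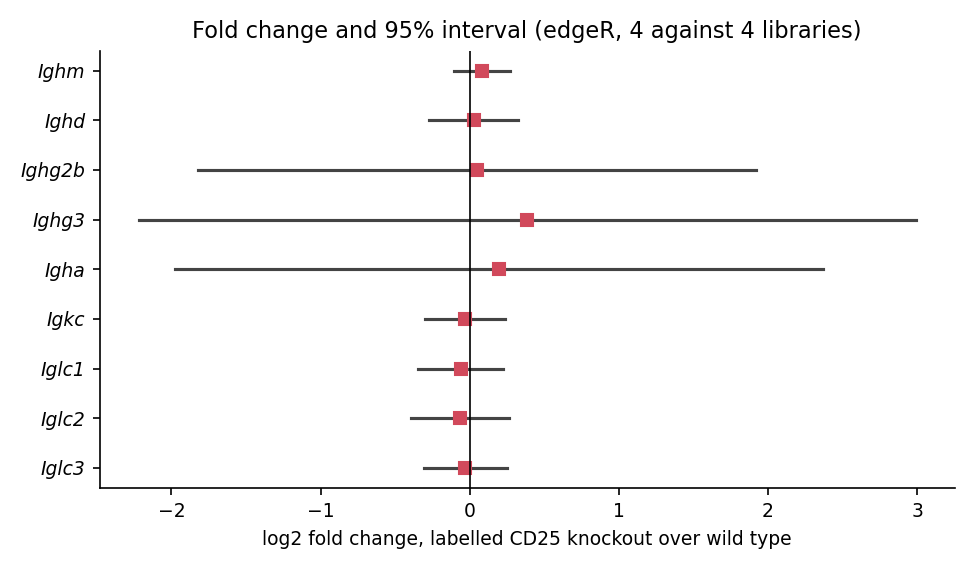
Log2 fold change of each constant gene, labelled knockout over wild type (squares), with its 95% interval (lines) from edgeR on 4 against 4 libraries. Each interval includes 0; those of Ighg2b, Ighg3 and Igha reach beyond -1 and 1, the other 6 stay within -0.39 and 0.33.

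Variable and joining segments of the same loci gave a second view of the light chains. Summed lambda V segments had 861 to 1272 CPM and summed kappa V segments had 1177 to 1685 CPM over the 8 libraries. Heavy chain V segments summed to between 1017 and 1338 CPM. Of the 166 immunoglobulin genes whose mean was 5 CPM or more, the one most like each lambda constant gene was a segment of its own cluster. The measure was Pearson's r of log2 CPM over the 8 libraries, in which both values of a pair come from the same library and share its scaling. Iglc1 was most like Iglv1 (r = 0.98), Iglc2 most like Iglv2 (r = 0.99) and Iglc3 most like Iglj3 (r = 0.96). In the mouse, Iglv2 lies in the cluster of Iglc2, and Iglv1 in that of Iglc3 and Iglc1. The r between Iglc1 and Iglc2 was 0.86, and between Iglc1 and Iglc3 it was 0.79. Between Iglc2 and Iglc3, the pair that share sequence, it was 0.50. The part of shared fragments in these values was not tested.

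**Figure D5:**
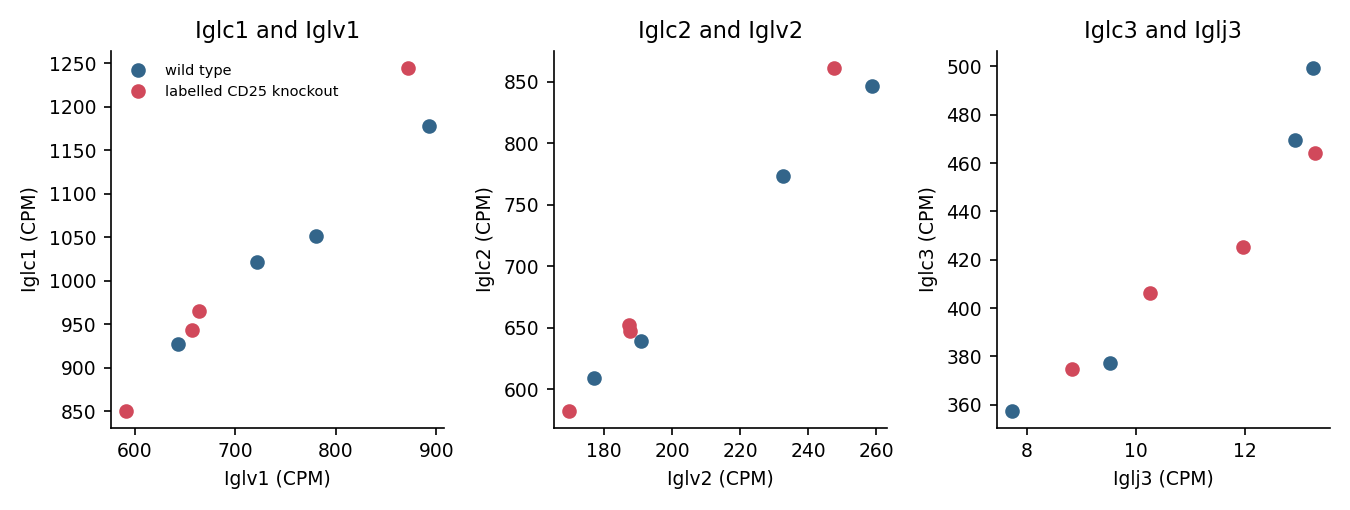
Each lambda constant gene (vertical axis, CPM) against its most alike immunoglobulin segment (horizontal axis, CPM), one point per library in each group. The points of both groups lie along a common line in each panel, with labelled knockout 1 high and labelled knockout 2 low for Iglc1 and Iglc2.

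Igkc was most like kappa V segments such as Igkv5-43 (r = 0.97) and Igkv6-32 (r = 0.96), and had r = 0.97 with Gm43218. Among immunoglobulin genes, Ighm was most like the heavy chain segment Ighv5-9 (r = 0.95). Genes outside the immunoglobulin loci came closer to Ighm, namely Taok3 (r = 0.99), Ncf4 (r = 0.98) and Tom1 (r = 0.97), and the closest to Ighd were Cers4 (r = 0.98), Lrrc57 (r = 0.97) and Myof (r = 0.96). Igkc was closest to Mrpl24 (r = 0.94), Sat1 (r = 0.92) and Casp6 (r = 0.92). Igha was closest to Ccs (r = 0.98), Gart (r = 0.94) and H2-DMb1 (r = 0.92), and Ighg2b to Mob4 (r = 0.93), H2-Eb1 (r = 0.91) and Gm12138 (r = 0.90). Outside the immunoglobulin loci, Iglc1 was closest to Rabggtb (r = 0.94), Cdh23 (r = 0.92) and Usp31 (r = 0.89), Iglc2 to Serpini1 (r = 0.94), Mllt11 (r = 0.93) and Tagap (r = 0.88), and Iglc3 to Nubp2 (r = 0.95), Rnf181 (r = 0.93) and Abt1 (r = 0.92). H2-DMb1 and H2-Eb1 are genes of MHC class II antigen presentation. Each gene named above as close was among the 3 closest of its kind, immunoglobulin or not, out of 10296 compared. Only 166 of these were immunoglobulin genes, so the choice was far wider outside the loci. A high r over 8 libraries is therefore a description and carries no test. Ighg2b and Igha were alike to a lesser degree (r = 0.82), and Ighm and Ighd had r = 0.71.

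Genes that work with the constant regions were counted by list, and 0 genes of any list passed the test over all genes. Without wild type 4, 363 genes passed over all genes. With every library kept, 18884 genes were tested, and the exact share called without wild type 4 was not computed. They included 3 of the 20 listed locus regulators (Irf8, Spi1 and Tcf3) and 0 genes of the other lists. Whether 3 of 20 was more than the share over all genes was not tested. The 6 receptor partners listed were Cd79a, Cd79b, Igll1, Vpreb1, Vpreb2 and Vpreb3. Of them, 1 had a higher and 5 a lower mean level in labelled knockout (median log2 fold change -0.50). Igll1 held 206, 153, 88.6 and 204 CPM in wild type 1 to 4 and 75.1, 159, 38.8 and 72.9 CPM in labelled knockout 1 to 4. The groups overlapped (log2 fold change -0.91 ± 0.40 SE, adjusted p = 0.393, edgeR). Vpreb1, its partner in the surrogate light chain, had -0.86 ± 0.38 (adjusted p = 0.393, edgeR). The signalling chains Cd79a and Cd79b had medians of 1397 and 2292 RPKM, against 55.9 RPKM for Igll1 and 7104 RPKM for Ighm.

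For 20 regulators of the immunoglobulin loci the median log2 fold change was 0.25, with 15 above 0 and 5 below. Ebf1, a factor of B lineage commitment, averaged 575 ± 30.0 CPM in wild type against 761 ± 144 CPM in labelled knockout (SD, n = 4 each; adjusted p = 0.391, edgeR). Foxo1, a regulator of Rag expression, had 81.7 ± 3.13 and 112 ± 24.4 CPM (adjusted p = 0.391, edgeR). For 16 genes of class switch recombination the median was -0.05, with 5 above 0 and 11 below. Exo1, an exonuclease of mismatch repair, had -0.62 ± 0.21 (adjusted p = 0.391, edgeR) and Apex1, an abasic site endonuclease, had -0.33 ± 0.15 (adjusted p = 0.399, edgeR). For the 13 plasma cell and secretion genes tested the median was 0.19, with 8 above 0 and 5 below. Mzb1, a chaperone that helps IgM secretion, had 18.7 ± 2.25 and 13.5 ± 1.12 CPM, and Slamf7 had 378 ± 21.4 and 324 ± 17.2 CPM (both adjusted p = 0.391, edgeR).

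Of 16 markers of transitional and mature B cells, 9 had a log2 fold change above 0 and 7 below, and their sum was 3526 to 4090 CPM in wild type and 3644 to 4314 CPM in labelled knockout. Plac8 had -0.59 ± 0.16 (adjusted p = 0.391, edgeR) and Ms4a1 had -0.23 ± 0.10 (adjusted p = 0.395, edgeR). Of 10 pro-B and progenitor markers 4 were above 0 and 6 below. Among them Sox4 had 0.35 ± 0.13 and Erg had -0.63 ± 0.27 (both adjusted p = 0.391, edgeR).

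Markers of cells outside the B lineage mostly had log2 fold changes below 0. For a pair of the 12 lists the summed levels of the groups did not overlap. Among single genes the groups were apart for 6.79% of all genes tested, and no such share was computed for summed lists. Erythroid markers, 10 of 11 below 0, summed to 3323 to 8930 CPM in wild type and 513 to 2585 CPM in labelled knockout. Hba-a1 alone held 702 to 2179 CPM in wild type and 70.8 to 543 CPM in labelled knockout. Alas2 held only 4.36 to 12.5 and 1.26 to 4.24 CPM, so the sum did not weigh the markers alike. Natural killer markers, 9 of 10 below 0, summed to 37.9 to 57.5 CPM and 9.92 to 34.0 CPM. The erythroid genes Alas2 and Hba-a1 had -1.59 ± 0.44 and -1.81 ± 0.57, and the natural killer genes Il2rb and Nkg7 had -1.13 ± 0.41 and -1.12 ± 0.47 (each adjusted p = 0.391, edgeR).

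The other lists overlapped between the groups; their genes are given by log2 fold change ± SE, with adjusted p from 0.391 to 0.616 (edgeR). Neutrophil markers (11 of 11 below 0) summed to 253 to 552 and 117 to 477 CPM, with Elane at -1.14 ± 0.84 and Lcn2 at -0.45 ± 0.38. Monocyte and macrophage markers (7 of 8 below 0) summed to 119.9 to 215 and 35.4 to 156 CPM, with F13a1 at -0.89 ± 0.23 and Csf1r at -0.65 ± 0.32. Plasmacytoid dendritic cell markers (8 of 10 below 0) summed to 79.0 to 108 and 54.2 to 93.6 CPM, with Ly6c2 at -0.57 ± 0.37 and Cox6a2 at -0.28 ± 0.23. T cell markers (6 of 9 below 0) summed to 35.4 to 46.2 and 23.8 to 39.1 CPM, with Trbc1 at -0.93 ± 0.39 and Trbc2 at -0.83 ± 0.53. No list had a marker at 0 in all 8 libraries, though the T cell genes Cd3e, Cd8a and Cd8b1 were too low to be tested. The part of these cells in the constant gene levels was not tested.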

How the data were processed

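RNA-seq libraries made with Trizol and a SMARTER mRNA-Seq kit, per the labels' protocols, were deposited as raw counts of fragments per gene. Per the file headers, the authors counted with featureCounts 2.0.1 in paired mode over exons of GENCODE M25, counting all alignments of multi-mapping fragments and setting no strand option. STAR 2.7.7a and GATK 4.1.9.0 with mm10 are named in the submitters' processing notes. Other: the deposited exon length per gene, per the file headers, was used for RPKM. No column belonged to another sample.

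Gene names came from GENCODE M21 (55227 of 55487 matched). Genes were filtered with filterByExpr, scaled with TMM and tested with edgeR 4.0.16 (robust quasi-likelihood, genotype only) in R 4.3.3, with Benjamini-Hochberg adjustment at 0.05 and the SE derived from the F value. CPM are TMM-scaled. Ratios used counts plus 0.5 and exact permutation over libraries, whose smallest possible p is 0.0286. The edgeR steps were tested on simulated data. No pair of libraries within a group was close enough to be a repeat deposit (chi-square of counts at least 25.2 per degree of freedom). The members and the 12 gene lists were chosen with earlier results of these data known. Genes named are the members, the other constant genes of the loci, the 2 list genes with the smallest unadjusted p, and the 3 most alike genes of at least 5 CPM (log2 CPM, prior count 2); other genes were named after their values were seen. Alternatives were other scalings, filters, tests (DESeq2 1.42.0, limma 3.58.1), a replicate block and leaving out each library.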

Additional observations from a re-analysis of the deposited data

Results flagged for a closer look

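The log2 ratio of lambda to kappa constant counts was -0.33 in wild type 1, while wild type 2 to 4 lay close together at -0.60, -0.64 and -0.61. This library stands apart by its gap to the nearest of the others, 0.862 of the group's range. Of 30 groups of 4 libraries examined in this way it was the 1 library to do so, and chance alone marks about 1 in 20 groups. Labelled knockout 1 had the highest ratio of its group, -0.24.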

How the results depend on the processing

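No alternative called any of the 9 constant genes. Over all genes, 6 passed by DESeq2 and between 0 and 363 with a library left out (363 without wild type 4, otherwise 0). Of 155 alternative values for the 9 genes 32 had the other sign. Upper quartile factors gave log2 fold changes of -0.013 for Ighm, -0.076 for Ighd and -0.060 for Ighg2b. With no count filter Igkc had 0.0097 and Iglc3 0.011. Limma-voom gave -0.0088 for Ighd and -0.067 for Ighg2b, and it lowered Ighm from 0.084 to 0.034. The others grew in size by over 1.5 times with the same sign. They reached 0.97 for Igha, 1.05 for Ighg3, -0.13 for Igkc, -0.15 for Iglc1, -0.19 for Iglc2 and -0.11 for Iglc3. With a library left out the values ran from 0.04 to 0.16 for Ighm, from -0.067 to 0.12 for Ighd, from -0.10 to 0.084 for Igkc, from -0.20 to 0.050 for Iglc1, from -0.20 to 0.046 for Iglc2 and from -0.10 to 0.063 for Iglc3. They ran from -0.66 to 0.64 for Ighg2b, from -0.68 to 1.09 for Igha and from -0.21 to 2.06 for Ighg3. The mean log2 differences ran from -0.10 to 0.034 for Ighd to Ighm, from -0.17 to -0.02 for Igkc to Ighm, from -0.16 to 0.031 for lambda to kappa, from -0.95 to 0.50 for downstream genes to Ighm and from -0.0041 to 0.10 for the share of counts; 3 against 4 libraries allow no exact p below 0.0571. The cause of these turns was not tested.

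The replicate numbers were not shown to pair the libraries: over 10296 genes the deviations of same-numbered libraries had r from -0.0328 to 0.636, and 3 of 8 libraries correlated best with their own number. With the replicate number as a block 0 genes passed, Ighg2b turned to -0.34, and the SE of Igha was 0.15 (log2 fold change 0.18, adjusted p = 0.581, edgeR). Depth limits Ighg3, which had at most 65 counts in a library.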
